A study of Mus musculus with 12 samples.

Results

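Nrk is a protein kinase of the germinal centre kinase family, and Tnik, Mink1 and Map4k4 are its closest relatives in the mouse. These 4 genes were followed among the 19938 genes that had a probe set with exactly 1 symbol, on 12 single-colour Affymetrix arrays of sorted muscle satellite cells. Nrk was chosen by its stage means on these 12 arrays, which differ widely, so its levels are given as a description without a test. The 3 relatives were listed by family, with earlier results of these data known, and were tested in a fit of all genes. A gene with several probe sets is represented by the brightest, but each of the 4 genes had only 1, so nothing was chosen among them.

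All mice were heterozygous for the Pax7-ZsGreen reporter, a fluorescent label for cells that express the satellite cell factor Pax7, and the labelled strain was C57BL/6. The stages were fetal (E17.5, forelimb and hindlimb, 4 mice), adolescent (postnatal day 21, hindlimb, 6 mice), adult (2 to 3 months, hindlimb, 8 mice) and aged (over 1 year, hindlimb, 8 mice), with 3 arrays each. Cells were pooled over animals, and sorting gates were set by age, against wild-type SV129 mice as the negative control. The labels do not say whether the arrays of a stage came from separate pools, so errors and p-values cover the spread among the arrays at hand, and that spread could be technical. In such bulk samples, fewer cells that express a gene and less RNA per cell cannot be told apart. Only the fetal samples included forelimb, so stage and limb cannot be told apart in comparisons with fetal cells.

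Germinal centre kinases belong to the Ste20-like kinases. Nrk, Tnik, Mink1 and Map4k4 share a kinase domain at the start of the protein and a citron homology domain at its end. Tnik, Mink1 and Map4k4 bind Rap2 GTPases and Nck adaptors, feed into the JNK stress kinase cascade, and phosphorylate the Lats kinases of the Hippo pathway. Tnik also binds Tcf7l2 and beta-catenin at Wnt target genes. Nrk carries the synonym Nesk in RefSeq, for embryo-specific kinase, and in mice its loss is known for an overgrown placenta and delayed delivery.

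The RefSeq table (GRCm38.p6) held start-site sequences for 2 of the 4 genes, Nrk and Mink1. Both are shown, since the results turn on Nrk and its relatives, together with Stk26, another germinal centre kinase, which was added after its values were seen. Each is the 250 bases before the start site, 5′ to 3′ on the plus strand. Capitals mark the GC box (GGGCGG, or CCGCCC on the other strand) and the CCAAT box (CCAAT, or ATTGG on the other strand). The Nrk stretch lies at chrX:138914180-138914429, the Mink1 stretch at chr11:70562631-70562880 and the Stk26 stretch at chrX:50841121-50841370.
Nrk: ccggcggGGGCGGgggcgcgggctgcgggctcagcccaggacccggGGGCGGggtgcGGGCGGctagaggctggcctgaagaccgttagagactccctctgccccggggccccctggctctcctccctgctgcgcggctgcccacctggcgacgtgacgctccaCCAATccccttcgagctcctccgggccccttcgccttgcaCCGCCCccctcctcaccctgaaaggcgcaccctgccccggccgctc
Mink1: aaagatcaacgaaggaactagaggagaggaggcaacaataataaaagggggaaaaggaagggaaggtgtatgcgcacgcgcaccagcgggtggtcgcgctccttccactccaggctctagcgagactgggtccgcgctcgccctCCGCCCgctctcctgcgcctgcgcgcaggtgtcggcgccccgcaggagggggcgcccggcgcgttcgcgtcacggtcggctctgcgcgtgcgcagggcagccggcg
Stk26: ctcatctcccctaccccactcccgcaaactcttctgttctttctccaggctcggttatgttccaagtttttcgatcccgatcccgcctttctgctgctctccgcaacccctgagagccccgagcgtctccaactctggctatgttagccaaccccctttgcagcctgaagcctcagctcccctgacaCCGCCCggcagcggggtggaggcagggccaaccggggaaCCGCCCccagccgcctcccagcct

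The 3 stretches are rich in G and C, at 76.4% for Nrk, 68.0% for Mink1 and 63.2% for Stk26, where the median over 32851 mouse start-site windows of this length was 52.4%. Nrk held 24 CpG dinucleotides, Mink1 32 and Stk26 14, where the median was 6. The Nrk stretch held 4 GC boxes and 1 CCAAT box, Mink1 held 1 GC box, and Stk26 held 2 GC boxes. Of all windows 32.7% held a GC box and 33.8% a CCAAT box on either strand. The TATA box letters (TATAAA) and the letters GGAATG, to which TEAD factors bind, occurred in none of the 3 windows on either strand, and in 12.4% and 12.6% of all windows. The E-box letters (CANNTG), read by myogenic bHLH factors, occurred once each in the Nrk and Mink1 windows, as in 66.2% of all windows, and not in that of Stk26. The capital stretches do not overlap each other, and the matches describe letters only.

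Arrays are given as RMA levels on the log2 scale, where a difference of 1 is a doubling. As a measure of background, 1196 olfactory and vomeronasal receptor genes were used, which serve smell and pheromone detection. Their 95th percentile lay between 5.33 and 5.52 on 9 arrays, and at 6.15 and 6.14 on adult replicates 2 and 3 and 5.87 on aged replicate 1. A level at or below that percentile is called near background here. Adult replicate 1 stood apart in another way, with high levels of cell division genes. In other stages replicate 1 also lay apart from replicates 2 and 3 for some markers. Acta1 was at 10.92 against 9.17 and 9.25 on fetal arrays, and Emcn at 9.98 against 8.94 and 8.98 on adolescent arrays. Mki67 was at 7.38 against 6.46 and 6.15 on aged arrays. Other markers showed no such gap, such as Calcr on fetal arrays (9.02, 9.04 and 9.01). The labels give no reason for these gaps. The 8 satellite cell markers were all above the receptor percentile in every stage. Their summed levels (on the linear scale) were 5752 to 6254 on fetal, 11895 to 12269 on adolescent, 14684 to 15197 on adult and 13909 to 15247 on aged arrays.

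Nrk was high in fetal cells, intermediate in adolescent cells and near background in adult and aged cells. Its levels were 11.71, 11.43 and 11.66 on fetal arrays. They were 8.02, 7.58 and 7.71 on adolescent arrays, 4.62, 4.67 and 4.70 on adult arrays, and 4.31, 4.34 and 4.17 on aged arrays. The stages did not overlap, which was also true of 41.6% of all genes for adolescent and fetal, 36.0% for adult and adolescent, 16.0% for aged and adult, and 48.9% for aged and fetal arrays. However, all 6 adult and aged arrays lay near background, where Nrk exceeded 56.6% to 81.3% of receptor genes on adult and 49.5% to 73.3% on aged arrays. The stage means were 11.60 ± 0.15 (fetal), 7.77 ± 0.23 (adolescent), 4.66 ± 0.04 (adult) and 4.27 ± 0.09 (aged; SD, n = 3 each).

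**Figure D1:**
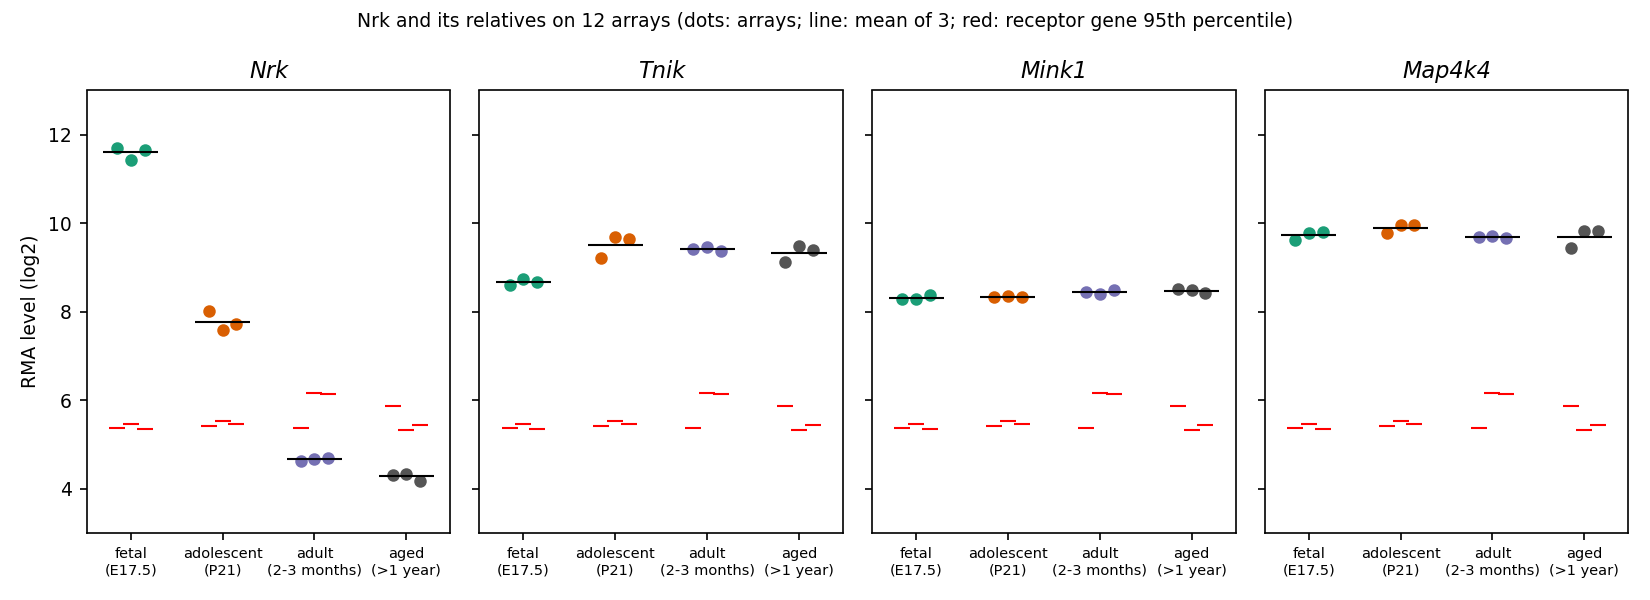
RMA level (log2) of Nrk, Tnik, Mink1 and Map4k4 by stage, with 1 dot per array, black lines at the mean of 3 arrays and red marks at the 95th percentile of receptor genes on the same array. Nrk lies between 11.43 and 11.71 on fetal arrays and below the red marks on all adult and aged arrays, while the other 3 genes stay above the marks on all 12 arrays.

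Adolescent cells held 14.2-fold less Nrk signal than fetal cells, with means of 7.77 and 11.60 and a log2 difference of -3.83 ± 0.12 (SE of the fit, n = 3 each, as for all differences here). In that comparison 7 of 19938 genes (0.0351%) had a lower difference. Nrk was chosen for such differences, so this place among all genes is a description and not a test. The adult arrays were near background, so the measured difference of -3.11 between adult and adolescent means has no exact size. With the adult arrays set at the 95th percentile of their receptor genes, Nrk was at least 3.70-fold lower in adult than in adolescent cells. Aged and adult levels were both near background (measured difference -0.39), so no fold is given and the 2 stages have no order.

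Over the whole span the measured difference between aged and fetal means was -7.33, of which the same holds. With the aged arrays at the 95th percentile of receptor genes, Nrk was at least 66.5-fold lower in aged than in fetal cells. The order of levels was therefore fetal, then adolescent, then adult and aged together. These values describe a gene that was picked for this pattern. Without adult replicate 1 the measured adult minus adolescent difference was -3.09, and without the 3 arrays with higher receptor signal it was -3.15, with -7.35 for aged minus fetal.

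Tnik, a kinase of the Wnt and JNK pathways, went the other way between fetal and adolescent cells. Its levels were 9.21, 9.68 and 9.64 on adolescent arrays and 8.61, 8.74 and 8.68 on fetal arrays, and the groups did not overlap, as with 41.6% of all genes. Tnik rose 1.78-fold in adolescent over fetal cells (log2 difference 0.83 ± 0.13, adjusted p = 6.52e-04 by limma with Benjamini-Hochberg adjustment over all genes, as for all adjusted p-values here). The limma fit called 18.8% of all genes in that comparison (10.1% higher and 8.68% lower), and 811 genes had a higher difference than Tnik.

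Tnik stood at 9.42, 9.47 and 9.36 on adult arrays, within the range of the adolescent arrays. It stood at 9.12, 9.48 and 9.40 on aged arrays, which overlapped with the adult ones. Neither step passed the test: the difference was -0.09 (95% interval -0.39 to 0.20, adjusted p = 0.606) for adult minus adolescent and -0.08 (-0.38 to 0.21, adjusted p = 0.702) for aged minus adult. Aged cells remained 1.57-fold above fetal cells (0.65 ± 0.13, adjusted p = 0.00181), in a comparison that shares the fetal arrays with the adolescent one and called 35.8% of all genes (16.4% higher and 19.4% lower). The order of Tnik levels put fetal below the 3 later stages, and among those no step differed beyond the spread of the arrays.

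Mink1, a kinase of the same shape as Tnik, had the narrowest range of the 4 genes. It was measured at 8.28, 8.28 and 8.38 on fetal, 8.33, 8.36 and 8.33 on adolescent, 8.44, 8.39 and 8.48 on adult, and 8.52, 8.48 and 8.42 on aged arrays. Its stage means spanned 0.16 on the log2 scale. The aged arrays lay above the fetal ones and the adult above the adolescent ones without overlap, as was true of 48.9% and 36.0% of all genes in these comparisons.

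No Mink1 difference passed the test. It was 0.03 (95% interval -0.15 to 0.21, adjusted p = 0.911) for adolescent minus fetal and 0.10 (-0.08 to 0.28, adjusted p = 0.385) for adult minus adolescent. It was 0.03 (-0.15 to 0.21, adjusted p = 0.810) for aged minus adult and 0.16 (-0.02 to 0.34, adjusted p = 0.166) for aged minus fetal. With quantile normalization repeated, Mink1 passed for adult minus adolescent (0.34, adjusted p = 0.0258) and for aged minus fetal (0.28, adjusted p = 0.0345), where over all alternatives the adjusted p ran from 0.0258 to 0.640 and from 0.0345 to 0.334.

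Map4k4, which signals from tumour necrosis factor receptors and acts on cell migration, also kept within a narrow range. Its levels were 9.61, 9.77 and 9.79 on fetal, 9.78, 9.97 and 9.95 on adolescent, 9.69, 9.70 and 9.66 on adult, and 9.44, 9.82 and 9.83 on aged arrays. Its stage means spanned 0.21, with the adolescent mean highest, and the adult arrays lay below the adolescent ones without overlap, as was the case in either direction for 36.0% of all genes.

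No Map4k4 difference passed either. It was 0.18 (95% interval -0.08 to 0.43, adjusted p = 0.405) for adolescent minus fetal, -0.21 (-0.47 to 0.04, adjusted p = 0.190) for adult minus adolescent, 0.01 (-0.24 to 0.26, adjusted p = 0.958) for aged minus adult and -0.03 (-0.28 to 0.22, adjusted p = 0.899) for aged minus fetal. Of the 3 relatives, the test therefore called 1 in adolescent against fetal (18.8% of all genes), 0 for the step between adolescent and adult cells (19.8%, or 4.56% higher and 15.2% lower), 0 for the step between adult and aged cells (3.50%, or 3.28% higher and 0.216% lower) and 1 in aged against fetal cells (35.8%). Without adult replicate 1 the shares of all genes called were 54.0% for adult minus adolescent and 39.3% for aged minus adult, and the 3 relatives were still not called in these 2 comparisons.

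**Figure D2:**
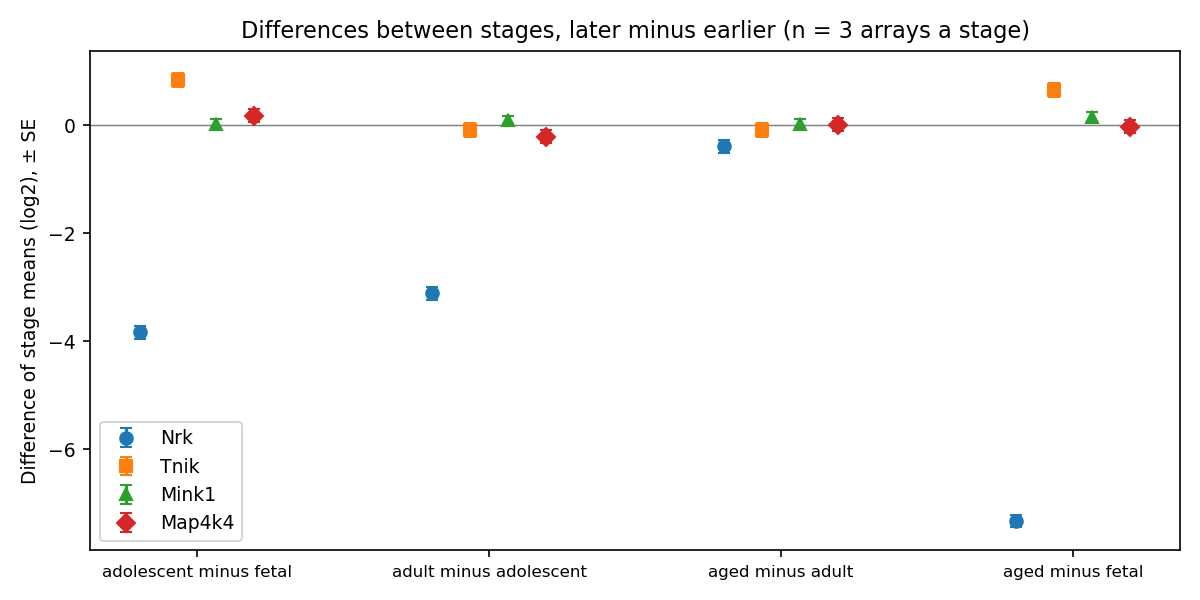
Differences of stage means (log2, later minus earlier stage, ± SE) for the 4 genes, n = 3 arrays a stage. The measured differences of Nrk are -3.83, -3.11 and -0.39 in the 3 steps and -7.33 for aged minus fetal, with adult and aged levels near background, while the relatives lie between -0.21 and 0.83.

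The 4 genes also differed in how they varied within a stage. Replicate 1 was the lowest of the 3 arrays for both Tnik and Map4k4 in fetal, adolescent and aged cells, and it was the highest for Nrk in fetal and adolescent cells. Aged replicate 1, with 9.12 for Tnik and 9.44 for Map4k4, was also the array of that stage with the higher receptor signal. Without that array the aged minus fetal difference was 0.76 for Tnik and 0.10 for Map4k4.

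Genes of cell division were followed beside Nrk because adult replicate 1 stood apart in them. Mki67, a marker of cycling cells, was at 10.82, 10.99 and 11.03 on fetal and at 10.56, 10.54 and 10.55 on adolescent arrays. It was at 9.28, 6.58 and 6.44 on adult and at 7.38, 6.46 and 6.15 on aged arrays. Top2a, the topoisomerase of replicating chromosomes, likewise stood at 8.04, 5.82 and 5.42 on adult and at 6.40, 5.76 and 5.34 on aged arrays. It was near background on adult replicates 2 and 3 and on aged replicate 3. Nrk was near background on all 6 adult and aged arrays, so it cannot be set against the cell division genes there. It exceeded 81.3% of receptor genes on adult replicate 1 and 56.6% and 57.3% on adult replicates 2 and 3, where the receptor signal was higher. The 4 measured proliferation markers summed to 5618 to 6990 on fetal, 4294 to 4402 on adolescent, 233 to 1339 on adult and 191 to 451 on aged arrays. Bub1, of these markers, was near background on all aged arrays and on adult replicates 2 and 3.

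**Figure D3:**
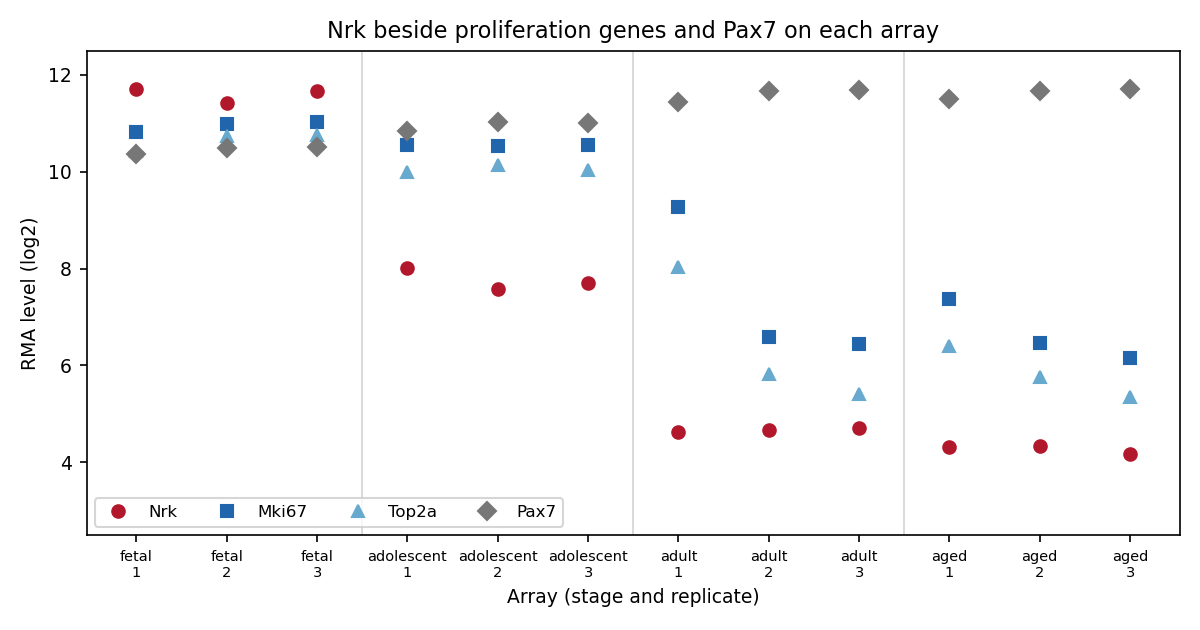
RMA level (log2) of Nrk, the proliferation genes Mki67 and Top2a, and Pax7 on each of the 12 arrays. Mki67 is 9.28 on adult replicate 1 and 6.58 and 6.44 on the other adult arrays, and Nrk is near background on all 3, which differ in background.

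Markers of other cells that a sort could hold were measured on the same arrays. The 4 mast cell markers summed to 1094 to 1362 on fetal, 162 to 166 on adolescent, 110 to 149 on adult and 143 to 185 on aged arrays. Cma1 was near background in adolescent, adult and aged cells, Mcpt4 in adolescent and adult cells, and Cpa3 in adult cells. The 4 tendon and cartilage markers summed to 676 to 821 on fetal, 452 to 486 on adolescent, 428 to 455 on adult and 403 to 618 on aged arrays, with Acan near background after the fetal stage. The 3 measured fibroblast markers summed to 2077 to 4073, 1938 to 2289, 1563 to 1758 and 2146 to 2550 in the same order of stages, none near background on all arrays of a stage. The mast cell and tendon sums were highest on fetal arrays, as was Nrk. The fibroblast sums of fetal, adolescent and aged arrays overlapped, and those of adult arrays lay below them. Dcn was the brightest of the 3, at stage means of 10.48, 10.49, 10.33 and 10.99 from fetal to aged. In aged against fetal cells, with 35.8% of all genes called (19.4% lower), the other 2 fibroblast markers were called lower. Col1a1 differed by -2.31 (adjusted p = 3.81e-07) and Pdgfra by -1.25 (adjusted p = 0.00348). For all 3 lists, their part in the Nrk pattern was not tested.

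Endothelial markers, 5 of 5 measured and none near background on all arrays of a stage, summed to 1132 to 2079 on fetal, 2841 to 4141 on adolescent, 1758 to 2155 on adult and 3149 to 4717 on aged arrays. The 4 pericyte markers summed to 1656 to 1855, 2205 to 2511, 2530 to 2672 and 3094 to 3558 in the same order. The pericyte sums were lowest on fetal arrays, as were the satellite cell sums given above and as was Tnik. The endothelial sums of fetal and adult arrays overlapped. In adolescent against fetal cells, with 18.8% of all genes called, 4 of 5 endothelial markers and all 8 satellite cell markers rose. Of the pericyte markers, Rgs5 (3.02) and Pdgfrb (1.24) rose and Cspg4 fell (-1.55, adjusted p = 1.37e-06). For the endothelial, pericyte and satellite cell lists, a part in the Tnik rise was not tested. The 4 myofibre markers summed to 1098 to 3330, 2938 to 3722, 1529 to 2263 and 1609 to 1779, the 4 macrophage markers to 385 to 469, 301 to 418, 257 to 370 and 331 to 454, the 3 measured lymphocyte markers to 111 to 126, 119 to 133, 131 to 164 and 135 to 150, and the 2 measured Schwann cell markers to 229 to 280, 283 to 297, 330 to 393 and 256 to 300. Cd79a, of the lymphocyte list, was near background in all stages, Adgre1, of the macrophage list, in adult cells, and Myh1, of the myofibre list, in fetal cells.

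The genes with a pattern most like that of Nrk were sought among 2633 genes with a mean of at least 6 in their brightest stage and stage means that spanned at least 1. By Pearson correlation over the 12 arrays, which share 4 stages of 3 arrays, the 10 most alike were Usp13 (r = 0.9946), Necab1 (0.9944), E2f7 (0.9933), Lamb1 (0.9924), Ranbp17 (0.9921), Fbln1 (0.9919), Fam122b (0.9912), Hmgb3 (0.9911), Lrp4 (0.9911) and Reep1 (0.9903). E2f7 is a transcription factor of the cell cycle, Lamb1 a laminin chain, Fbln1 a matrix protein and Lrp4 the agrin receptor of the neuromuscular junction. Lamb1 had the widest range of the 10, with stage means of 10.72, 8.68, 7.38 and 7.10 from fetal to aged, and Reep1 the narrowest, with 7.92, 7.06, 6.48 and 6.29. The measured stage means of Nrk spanned 7.33, those of the 10 genes 1.63 to 3.62. The 10 genes differed among themselves in their steps. Fam122b had 5.99 in aged and 5.97 in adult cells. Hmgb3, with 9.40, 8.56, 7.63 and 7.49 from fetal to aged, had the larger of its first 2 steps after adolescence. Nrk was near background in adult and aged cells, so its own steps after adolescence have no exact size to set beside these. Some of the 10 genes are limited in the same way. The adult means of Usp13 (5.39), Ranbp17 (5.43), Necab1 (5.90) and Fam122b lay below the receptor percentiles of adult replicates 2 and 3 (6.15 and 6.14). The spans and late steps of these genes are therefore not exact either. Without the 3 arrays with higher receptor signal the 10 genes held ranks between 2 and 42.

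**Figure D4:**
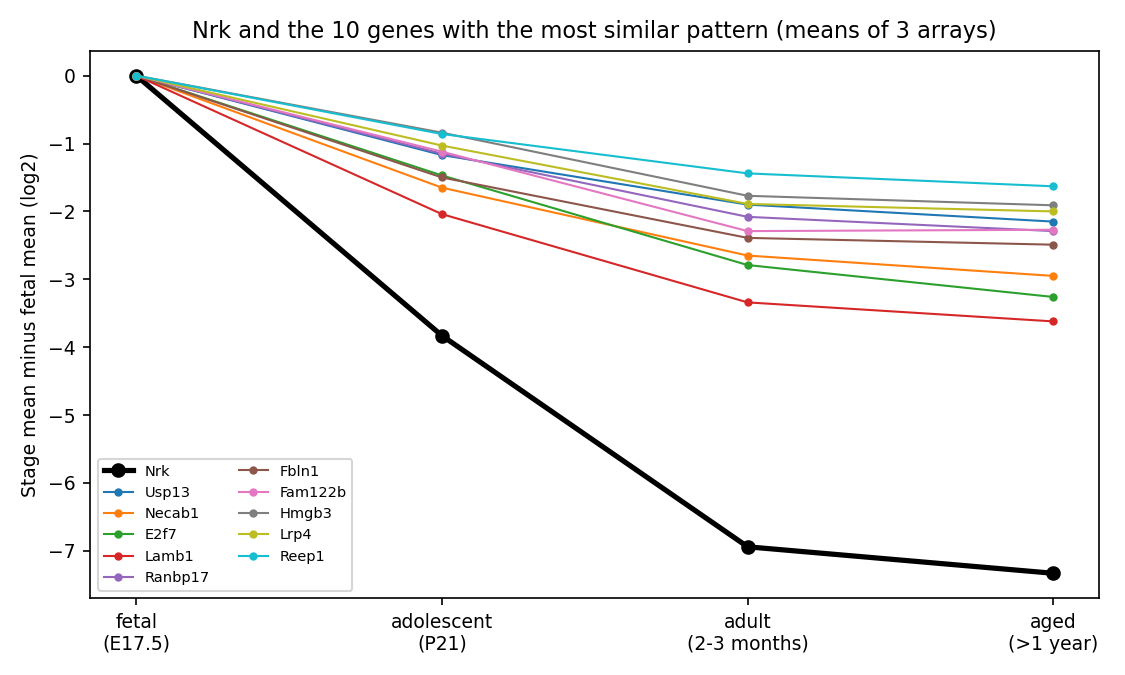
Stage mean minus fetal mean (log2, means of 3 arrays) for Nrk and the 10 genes with the highest Pearson correlation with it over 12 arrays. All 11 lines go down from fetal to adult cells, and the measured means of Nrk span 7.33, where Lamb1 spans 3.62.

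No such search was made for the relatives, whose stage means spanned 0.83 (Tnik), 0.16 (Mink1) and 0.21 (Map4k4). Along chromosome X in the RefSeq order of GRCm38.p6, the named and measured genes next to Nrk are Il1rapl2 and Tex13a on one side and Serpina7 and Pwwp3b on the other. Il1rapl2, Tex13a and Serpina7 were near background on all 12 arrays, between 3.25 and 4.26 in stage means. Pwwp3b was at 7.19, 6.91 and 7.04 on adolescent arrays and at 8.39, 8.19 and 8.35 on fetal arrays, and fell by 1.27 on the log2 scale (SE 0.23, adjusted p = 0.00167). On adult arrays it was at 6.33, 5.26 and 5.25, of which the last pair was near background, and it fell by 1.43 against adolescent cells (SE 0.23, adjusted p = 0.00138).

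Other germinal centre kinases were measured for 17 of 20 listed genes. In adolescent against fetal cells, with 18.8% of all genes called, 1 rose and 1 fell. The median difference of the 17 was -0.06 where all genes had 0.02. Stk26, an X-linked kinase of the striatin complexes also known as Mst4, stood at 6.97, 6.71 and 6.81 on adolescent arrays and at 9.47, 9.65 and 9.64 on fetal arrays. It fell by 2.75 on the log2 scale (SE 0.25, adjusted p = 4.96e-06), and Taok3, a kinase of the TAO subfamily, rose by 0.62 ± 0.15 (adjusted p = 0.00944).

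In adult against adolescent cells 0 of these 17 kinases rose and 6 fell (median -0.22, all genes 0.03, 19.8% of all genes called), and without adult replicate 1 the counts were 2 and 9, with 54.0% of all genes called. The largest falls were those of Stk26 (-1.08 ± 0.25), Stk10 (-0.79 ± 0.14), a kinase of lymphocyte migration, Oxsr1 (-0.63 ± 0.15), which regulates ion transporters, and Stk4 (-0.61 ± 0.13), the Hippo kinase Mst1. Stk26 lay at 6.45, 5.54 and 5.25 on adult arrays, with the last pair near background. In aged against adult cells 2 rose and 0 fell, Stk10 (0.55 ± 0.14) and Stk39 (0.53 ± 0.12), with a median of 0.16 (all genes -0.01, 3.50% of all genes called), and without adult replicate 1 these counts were 7 and 0, with 39.3% of all genes called.

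In aged against fetal cells 2 of the 17 rose and 7 fell (median -0.11, all genes 0.02), a share to be read against the 35.8% of all genes called. Stk26 fell most (-3.35 ± 0.25, adjusted p = 3.38e-07), followed by Stk4 (-0.55 ± 0.13) and Stk24 (-0.53 ± 0.09), and Taok3 rose (0.98 ± 0.15). The other rise was that of Myo3a (0.34 ± 0.10), named after its values were seen, which was near background on all 12 arrays. Of the 6 p21-activated kinases, a sister branch of the Ste20 family, 4 were measured. Of these 0 rose and 2 fell in aged against fetal cells, Pak3 (-1.58 ± 0.28) and Pak4 (-0.45 ± 0.10), and Pak3 also fell in adult against adolescent cells (-1.27 ± 0.28), where without adult replicate 1 there were 3 falls, with 54.0% of all genes called.

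**Figure D5:**
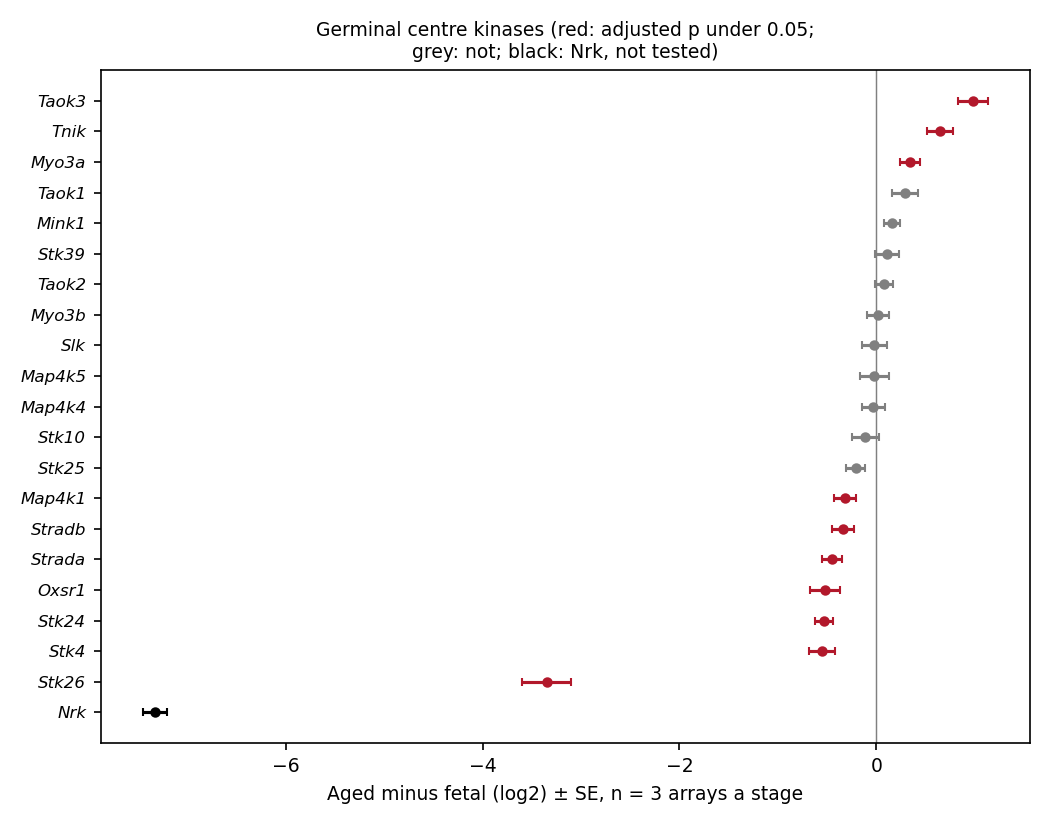
Aged minus fetal difference (log2, ± SE, n = 3 arrays a stage) of Nrk, its 3 relatives and 17 other germinal centre kinases. Nrk lies at a measured -7.33 (black, not tested, aged levels near background) and Stk26 at -3.35, and the other 19 genes lie between -0.55 and 0.98, with those that passed the test in red.

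Of 8 proteins that bind these kinases or share their citron domain, 7 were measured, and in adolescent against fetal cells 1 rose and 0 fell, with 18.8% of all genes called (2 and 2 without adult replicate 1, with 25.3%). The rise was that of Traf2 (0.77 ± 0.10, adjusted p = 1.58e-04), the adaptor of tumour necrosis factor receptors from which Tnik takes part of its name. In adult against adolescent cells, with 19.8% of all genes called, 0 rose and 3 fell, Cit (-1.05 ± 0.17), Rap2a (-0.71 ± 0.12) and Rap2b (-0.60 ± 0.18), and without adult replicate 1 all 7 fell, with 54.0% of all genes called. Cit, or citron kinase, gave the citron homology domain its name and acts in cell division. In aged against fetal cells, with 35.8% of all genes called, 1 rose and 3 fell. Traf2 (0.71 ± 0.10) was higher and Cit (-1.70 ± 0.17), Rap2c (-1.04 ± 0.26) and Rap2a (-0.87 ± 0.12) were lower.

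The JNK cascade was measured for 17 of 18 genes. In adolescent against fetal cells, with 18.8% of all genes called, 2 rose and 2 fell (median -0.07). Map3k5, the stress kinase Ask1, was at 8.58, 8.42 and 8.44 on adolescent arrays and at 5.49, 5.39 and 5.40 on fetal arrays, of which replicate 2 was near background, and rose by 3.06 ± 0.11 (adjusted p = 1.08e-09). Jun, the transcription factor phosphorylated by JNK, rose by 0.76 ± 0.10, and Map3k1 (-0.55 ± 0.13) fell. In aged against fetal cells, with 35.8% of all genes called, 3 rose and 3 fell (median -0.05). Map3k5 (3.39 ± 0.11), Jund (1.98 ± 0.17) and Jun (1.23 ± 0.10) were higher, and Map3k7 (-0.52 ± 0.14), or Tak1, was among the lower ones. Without the 3 arrays with higher receptor signal the counts were 2 and 6 in adolescent against fetal cells, with 29.6% of all genes called, and 5 and 3 in aged against fetal cells, with 44.5%.

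Of 17 genes of the Hippo core and its targets, 17 were measured. In adolescent against fetal cells, with 18.8% of all genes called, 3 rose and 4 fell (median -0.11). Tead2, a DNA-binding partner of Yap1, was at 8.00, 7.79 and 7.86 on adolescent arrays and at 9.23, 9.43 and 9.53 on fetal arrays, and fell by 1.51 on the log2 scale (SE 0.14, adjusted p = 5.29e-06). Tead4 fell as well (-0.57 ± 0.14), and the target genes Ankrd1 (1.14 ± 0.14) and Ccn2 (0.89 ± 0.26) rose. In aged against fetal cells, with 35.8% of all genes called, 6 rose and 4 fell (median -0.09). Ccn2 (2.70 ± 0.26) and Ankrd1 (2.31 ± 0.14) were higher, and Tead2 (-2.63 ± 0.14) and Tead4 (-1.35 ± 0.14) were lower.

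Striatin complexes, which bring phosphatase 2A to germinal centre kinases, were measured for 13 of 14 genes, and in aged against fetal cells 0 rose and 3 fell (median -0.11), or 3 and 3 without the 3 arrays with higher receptor signal, where 44.5% of all genes were called. With all 12 arrays, where 35.8% of all genes were called, the falls were those of Ppp2ca (-0.84 ± 0.10), the catalytic phosphatase subunit, Strn4 (-0.81 ± 0.13) and Strip2 (-0.43 ± 0.10). Strip2 was near background on all 12 arrays. Of the Wnt nuclear factors 5 of 6 were measured, and 0 rose and 3 fell in aged against fetal cells (median -0.33, 35.8% of all genes called). Those that fell were Tcf7l1 (-0.98 ± 0.10), Ctnnb1 (-0.49 ± 0.11) and Tcf7l2 (-0.33 ± 0.10). Tcf7l2, the partner of Tnik, was lower in adolescent than in fetal cells (-0.98 ± 0.10, adjusted p = 1.58e-05), in the comparison in which Tnik was higher.

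Of 11 genes for cofilin, its kinases and phosphatases and the ERM proteins, which these kinases act on at the actin cortex, 10 were measured, and in adolescent against fetal cells 4 rose and 0 fell (median 0.24). The rises were those of the cofilin phosphatases Ssh3 (0.97 ± 0.11) and Ssh2 (0.60 ± 0.11), of Msn, or moesin (0.61 ± 0.10), and of Limk1 (0.34 ± 0.11), a cofilin kinase. In adult against adolescent cells 1 rose and 4 fell, with Limk1 (-0.80 ± 0.11) and Ezr (-0.58 ± 0.12), or ezrin, lower and Ssh3 (0.50 ± 0.11) higher. Without the 3 arrays with higher receptor signal these counts were 1 and 1, with 7.95% of all genes called. In aged against fetal cells 3 rose and 3 fell (median -0.10), among them Ssh3 (1.57 ± 0.11) and Ssh2 (0.96 ± 0.11) upward. The lists were described by counts, and the shares of all genes called in these comparisons were 18.8%, 19.8% and 35.8%.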

How the data were processed

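The deposited values are log2 RMA levels, made with Expression Console 1.2.1.20 from Affymetrix per the submitters' processing notes, and were used as given. The genome build and aligned probe positions are not given in the sources used here. Array medians over all probe sets lay between 6.13 and 6.29, and precision is limited by having 3 arrays a stage.

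Of 35556 probe sets, 21789 had 1 symbol, 1621 several and 12146 none in the annotation used. The brightest probe set per symbol gave 19938 genes. All 12 arrays entered 1 linear model with a mean per stage (limma 3.58.1, R 4.3.3, moderated variance), and calls were made where the p-value, adjusted over all genes by Benjamini-Hochberg, was under 0.05. The fit was tested on simulated data. The members, lists and tests were chosen with earlier results of these data known. Named genes are the 4 kinases, up to 4 called genes per list and comparison with the largest difference, the 10 genes most like Nrk and its chromosomal neighbours. Listed genes without a probe set of 1 symbol were not analysed here.

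The labels number the replicates 1 to 3 in each stage but state no pairing. Deviations from the stage means correlated between equal numbers at 0.362, 0.317 and 0.239 for adult and adolescent arrays, and at -0.435, -0.393 and -0.237 for aged and adult arrays. For adult and adolescent arrays, unequal numbers gave 0.240 (adult replicate 2, adolescent replicate 3) and 0.293 (adult replicate 3, adolescent replicate 2). They gave -0.336 to -0.264 where 1 array of the pair was replicate 1. These values do not establish a pairing, and the main fit had no replicate block. Alternatives were other scalings, a receptor-based floor, the mean of probe sets, a filter on dim genes, fits of 2 stages, another variance model, the replicate block and leaving out arrays. The alternative without adult replicates 2 and 3 and aged replicate 1, and the list counts without adult replicate 1, were chosen after seeing the data.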

Additional observations from a re-analysis of the deposited data

How the results depend on the processing

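The measured Nrk differences kept their sign under all 14 alternatives run for each comparison, a description of a gene picked for this pattern. In aged minus adult (-0.44 to -0.22) both stages are near background, so that sign gives no order. The mean of probe sets, the fits of 2 stages, the other variance model and the replicate block cannot change a member's difference, only its error. In adolescent minus fetal, leaving out adult replicates 2 and 3 and aged replicate 1 removes no array compared. The Tnik calls in adolescent against fetal (adjusted p 1.51e-04 to 0.00539) and aged against fetal cells (5.26e-04 to 0.0109) held under all 14. With a floor at the 95th percentile of receptor genes the Nrk difference was -1.89 for adult minus adolescent and -6.06 for aged minus fetal, since the floor replaces the adult and aged levels, and with quantile normalization repeated it was -0.22 for aged minus adult. Centring each array on its median shifted all genes by 0.11 in adult minus adolescent. Relative to the median of all genes, Nrk stood at -3.14 there, a value that such centring cannot change because it shifts all genes of an array alike. Repeated quantile normalization brought Mink1 past the threshold in adult minus adolescent (0.34) and aged minus fetal (0.28), and the cause was not tested. Differences that had not passed changed sign under centring (Mink1 -0.03 in adolescent minus fetal and -0.02 in aged minus adult, Tnik 0.01 in adult minus adolescent, Map4k4 -0.04 in aged minus adult) and under repeated quantile normalization (Tnik 0.12 in adult minus adolescent, Mink1 -0.12 and Map4k4 -0.09 in aged minus adult, Map4k4 0.07 in aged minus fetal). The same held without adult replicates 2 and 3 and aged replicate 1 (Tnik 0.02 in aged minus adult, Map4k4 0.10 in aged minus fetal), a setting that leaves 1 adult array, assumed to vary like the other groups. Leaving out 1 array gave -3.96 to -3.73 for Nrk and 0.75 to 0.98 for Tnik in adolescent minus fetal, -3.21 to -2.98 and -0.25 to -0.01 in adult minus adolescent, -0.43 to -0.34 and -0.16 to 0.02 in aged minus adult, and -7.41 to -7.28 and 0.58 to 0.76 in aged minus fetal. In the same order Mink1 ran from 0.01 to 0.06, 0.08 to 0.12, 0.01 to 0.06 and 0.14 to 0.19, and Map4k4 from 0.12 to 0.23, -0.27 to -0.18, -0.05 to 0.14 and -0.09 to 0.10.

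The counts of all genes called, 3739, 3941, 697 and 7138 in the 4 comparisons, moved more. In adult against adolescent cells the count was 2145 with only these stages fitted, 1586 without the 3 arrays, 2464, 2385 and 2249 when adolescent replicate 1, 2 or 3 was left out, and 10757, 1876 and 1938 when adult replicate 1, 2 or 3 was. In aged against adult cells it was 176 with only these stages, 1608 without the 3 arrays, 7844, 269 and 289 without adult replicates 1, 2 and 3, and 2214, 214 and 216 without aged replicates 1, 2 and 3. In adolescent against fetal cells it was 5904 without the 3 arrays, and 2690 to 3330 without a single array, and in aged against fetal cells 5893 to 6928. With the replicate block the counts were 3494, 3458, 518 and 6831, and the block changed no call of the 3 relatives and moved no count by over 1.5 times. Levels near background limit what can be said of Nrk in adult and aged cells.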
